A study of Rattus norvegicus with 30 samples.

Results

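The 10 genes of the circadian clock described here were followed through the gut of rats given irinotecan, a topoisomerase I inhibitor used against colorectal cancer that damages the intestinal lining. They were Clock, Bmal1, Per1, Per2, Cry2, Bhlhe40, Nr1d1, Nr1d2, Dbp and Tef. A gene was taken when a probe set of the array carried its symbol and no other, which gave 10 of the 10 genes and 19 probe sets, out of 14217 genes with a symbol of their own and 31042 probe sets tested. Each gene is described by its brightest probe set over all 30 arrays, and its other probe sets are given as a check. The symbols Arntl and Bmal1 name the same gene.

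The dosed groups were stomach, jejunum and colon taken 1, 6, 24 or 72 h after 1 intraperitoneal injection of irinotecan at 200 mg/kg under light halothane, and the control was the same tissue of rats killed at 0 h without the drug. All 30 rats were female, of the DA strain and 10 weeks old, with 6 rats at each time. Pieces of whole tissue were frozen after a saline flush, RNA of 3 rats was pooled per array, and 2 arrays were run per tissue and time, so that 15 groups held 30 arrays. Each rat gave all 3 tissues, and p-values measure the spread between pools only. The sources used here do not give the hour of killing, which rats went into which numbered pool, or whether the 0 h rats had an anaesthetic. No undosed rats were killed at 1, 6, 24 or 72 h, so the drug, the injection, the anaesthetic and the hour of the day cannot be told apart in any comparison with 0 h.

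The circadian clock is a loop of transcription that most cells run with a period near a day. CLOCK and BMAL1 bind as a pair to E-box sequences and switch on the Per and Cry genes, whose proteins return to the nucleus and inhibit that pair. The same pair drives Nr1d1 and Nr1d2, which encode the REV-ERB nuclear receptors that repress Bmal1 through ROR elements, and output genes such as Dbp, which act through D-boxes. In the gut the clock is set largely by feeding and by glucocorticoids, and it times digestion, absorption and the renewal of the epithelium.

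Values are log2 signals of the authors' RMA processing, a difference of 1 is a 2-fold difference, and each ± beside a change is limma's standard error from 2 arrays against 2. A change passed at a Benjamini-Hochberg adjusted p under 0.05 over all 31042 probe sets. Where arrays were left out in turn, only arrays of the groups compared were taken. All arrays had medians between 6.97 and 7.06, and the 2 arrays of a group correlated at 0.947 to 0.996 over probe sets. Tissue markers matched the labels: the gastric gland list had an array median of 12.78 to 13.51 in the stomach, the enterocyte list 13.48 to 13.66 in the jejunum, and the colon epithelium list 11.99 to 12.66 in the colon. Stomach arrays were unlike in markers of squamous epithelium, however. The median of that list was 7.17 and 9.73 on the 0 h stomach arrays and 11.50 on stomach 72 h replicate 2. The part of this in the stomach comparisons was not tested. On 4 arrays pancreatic or gastric markers lay over 2 log2 units above the highest 0 h array of their tissue (stomach 72 h replicate 1, colon 6 h replicate 1, colon 24 h replicate 1 and colon 72 h replicate 2), and on jejunum and stomach 24 h replicate 1 the GAPDH 3′ probe set exceeded the 5′ one by over 0.5, a sign of RNA quality. Results that change without these 6 arrays are given below in that form, some of them only as counts of genes.

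Against 0 h, Dbp fell in the jejunum at 6, 24 and 72 h, Nr1d1 fell there at 72 h, Clock rose there at 6 and 72 h, and Bhlhe40 rose there at 72 h. In the jejunum 0 of the 10 genes passed at 1 h, 2 at 6 h, 1 at 24 h and 4 at 72 h, where 0.0354%, 3.49%, 0.409% and 23.9% of all probe sets passed. No gene of the 10 passed in the stomach at 1, 6, 24 or 72 h, where 0.0161%, 0.0322%, 0.0161% and 0.00644% of probe sets passed, and 3, 4, 2 and 2 of the 10 had an unadjusted p under 0.05, as did 5.72%, 8.83%, 8.34% and 7.56% of probe sets. In the colon 0 of 10 passed at every time, against 0%, 1.19%, 1.14% and 1.32% of probe sets, and 4, 3, 3 and 4 of the 10 had an unadjusted p under 0.05, as did 14.9%, 14.1%, 16.7% and 17.2% of probe sets. The 4 comparisons within a tissue share its 0 h arrays, so they are not separate pieces of evidence. The median change of the 10 genes at 72 h was -0.03 in the jejunum, -0.02 in the stomach and -0.10 in the colon, beside -0.07, -0.04 and -0.02 over all probe sets. In whole tissue, fewer cells of a type and less RNA per cell cannot be told apart.

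**Figure D1:**
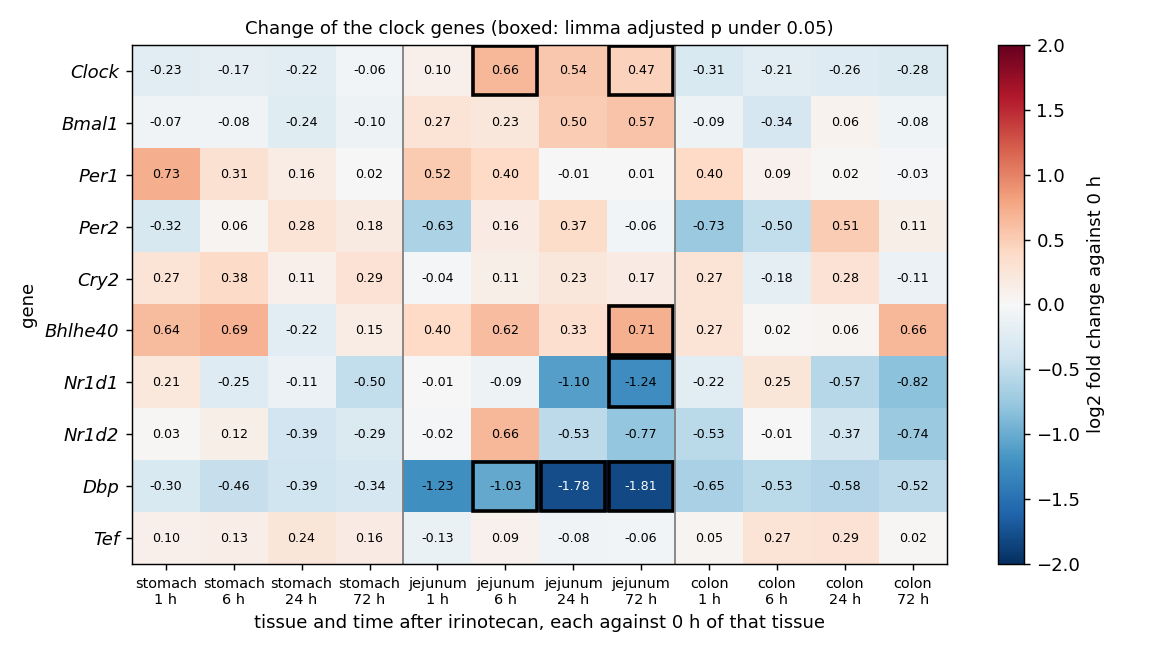
Log2 fold change of the 10 clock genes (rows, brightest probe set) at 1, 6, 24 and 72 h after irinotecan against 0 h in stomach, jejunum and colon (columns), with boxes where limma's adjusted p was under 0.05. All 7 boxed cells lie in the jejunum, with Dbp the darkest blue at -1.81, and the stomach and colon columns hold none.

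When the 5 times were tested together, 6 of the 10 genes differed across times in the jejunum, with 19.2% of probe sets passing, and 0 in the stomach and 0 in the colon, with 0.0387% and 4.59% passing. The 6 were Dbp (limma adjusted p = 0.00371), Clock (adjusted p = 0.0165), Per2 (adjusted p = 0.0197), Nr1d1 (adjusted p = 0.0209), Per1 (adjusted p = 0.0253) and Nr1d2 (adjusted p = 0.028). Leaving out any 1 of the 10 jejunum arrays left Dbp past the threshold each time, while the others kept it in 4 to 6 of the 10 repeats. In the colon 7 of the 10 genes had an unadjusted p under 0.05 across times, as did 26.8% of probe sets. For 24 h against 6 h and for 72 h against 24 h, 0 of the 10 passed in the stomach (0% and 0.00322% of probe sets) and 0 in the jejunum (0.896% and 12.9%), and in the colon 0 and 1 (0.564% and 6.73%).

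Among the output genes, Dbp encodes a PAR bZIP activator that passes the clock's rhythm to genes of metabolism and detoxification. Its locus is on chromosome 1 from 105312256 to 105317205 of the GRCr8 assembly. In the jejunum Dbp lay at 8.71 and 8.82 at 0 h, at 7.13 and 7.92 at 1 h, at 7.58 and 7.89 at 6 h, at 6.98 and 6.99 at 24 h, and at 6.90 and 7.01 at 72 h. The undosed jejunum thus stood above every dosed array, with the 24 h and 72 h pools lowest and close together, and the 2 pools at 1 h far apart. The change was -1.23 ± 0.21 at 1 h (limma adjusted p = 0.229), -1.03 at 6 h (adjusted p = 0.0362), -1.78 at 24 h (adjusted p = 0.0199) and -1.81 at 72 h (adjusted p = 0.00132), so 0.285 of the undosed signal was left at 72 h. The 72 h call was kept when each array was left out in turn (adjusted p = 0.0126 to 0.0207), the 24 h call in 2 of 4 repeats (0.00129 to 0.22) and the 6 h call in 0 of 4 (0.134 to 0.283). Without the jejunum 24 h array that had the GAPDH gap, the 1 h change also passed (adjusted p = 0.0351).

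Stomach Dbp was 7.70 and 7.57 at 0 h, 7.28 and 7.39 at 1 h, 7.16 and 7.20 at 6 h, 7.13 and 7.36 at 24 h, and 7.32 and 7.28 at 72 h. Colon Dbp was 7.59 and 7.72 at 0 h, 6.90 and 7.10 at 1 h, 7.11 and 7.13 at 6 h, 7.04 and 7.11 at 24 h, and 6.97 and 7.30 at 72 h. In both tissues the dosed arrays lay below the pair of 0 h arrays at every time, with stomach differences of -0.46 to -0.30 log2 units and colon differences of -0.65 to -0.52, and no such change passed (stomach adjusted p = 0.223 to 0.825, colon adjusted p = 0.0705 to 0.26). Without colon 72 h replicate 2, where pancreatic markers stood out, the colon change at 72 h was -0.68 ± 0.14 (limma adjusted p = 0.0353). Over the 3 tissues, all 24 dosed arrays had less Dbp than either 0 h array of their tissue, a pattern that 0.00644% of all probe sets, 2 of 31042, shared. That count rests on the same 6 undosed arrays throughout.

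The Dbp response differed between tissues at 24 h (limma interaction, adjusted p = 0.0319) and at 72 h (adjusted p = 0.00631), but this was not shown at 1 h (adjusted p = 0.399) or 6 h (adjusted p = 0.392). It was 1 of 10 genes at 24 h and 1 of 10 at 72 h, where 0.229% and 2.28% of probe sets passed, and 0 of 10 at 1 h and 6 h, where 0.00322% and 0.251% passed. At 72 h the jejunum change lay 1.47 ± 0.24 log2 units below the stomach change (limma adjusted p = 0.00425, with 2.75% of probe sets passing), and the colon change 1.29 ± 0.24 above the jejunum change (adjusted p = 0.0237, with 0.886% passing). The 72 h difference was kept in 12 of 12 repeats that left out an array (adjusted p = 0.00255 to 0.0468) and the 24 h difference in 5 of 12 (0.0337 to 0.152). The tissues also differed before dosing, since Dbp at 0 h was 1.12 ± 0.17 log2 units higher in the jejunum than in the stomach (limma adjusted p = 4.31e-05) and 1.11 lower in the colon than in the jejunum (adjusted p = 6.02e-05). At 72 h the 6 arrays of the 3 tissues lay within 6.90 to 7.32. These fits treat tissues of the same rats as independent.

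Tef, a PAR bZIP relative of Dbp, did not follow it. Its brightest probe set stayed within 7.396 to 7.995 on all 30 arrays. The largest changes were 0.29 ± 0.11 in the colon at 24 h (limma adjusted p = 0.242) and 0.27 at 6 h (adjusted p = 0.324), and in the jejunum they ran from -0.13 to 0.09. Tef had an average change over the 3 tissues of 0.16 ± 0.05 at 6 h (limma adjusted p = 0.0769). Both pools at 6 h lay above both 0 h pools in each of the 3 tissues, a pattern held by 3.05% of probe sets. Neither other Tef probe set held this pattern, because their stomach pools at 6 h and 0 h overlapped. There 1 had 6.55 and 6.67 at 6 h against 6.73 and 6.46 at 0 h. The remaining one had 6.03 and 6.08 against 6.06 and 5.71.

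**Figure D2:**
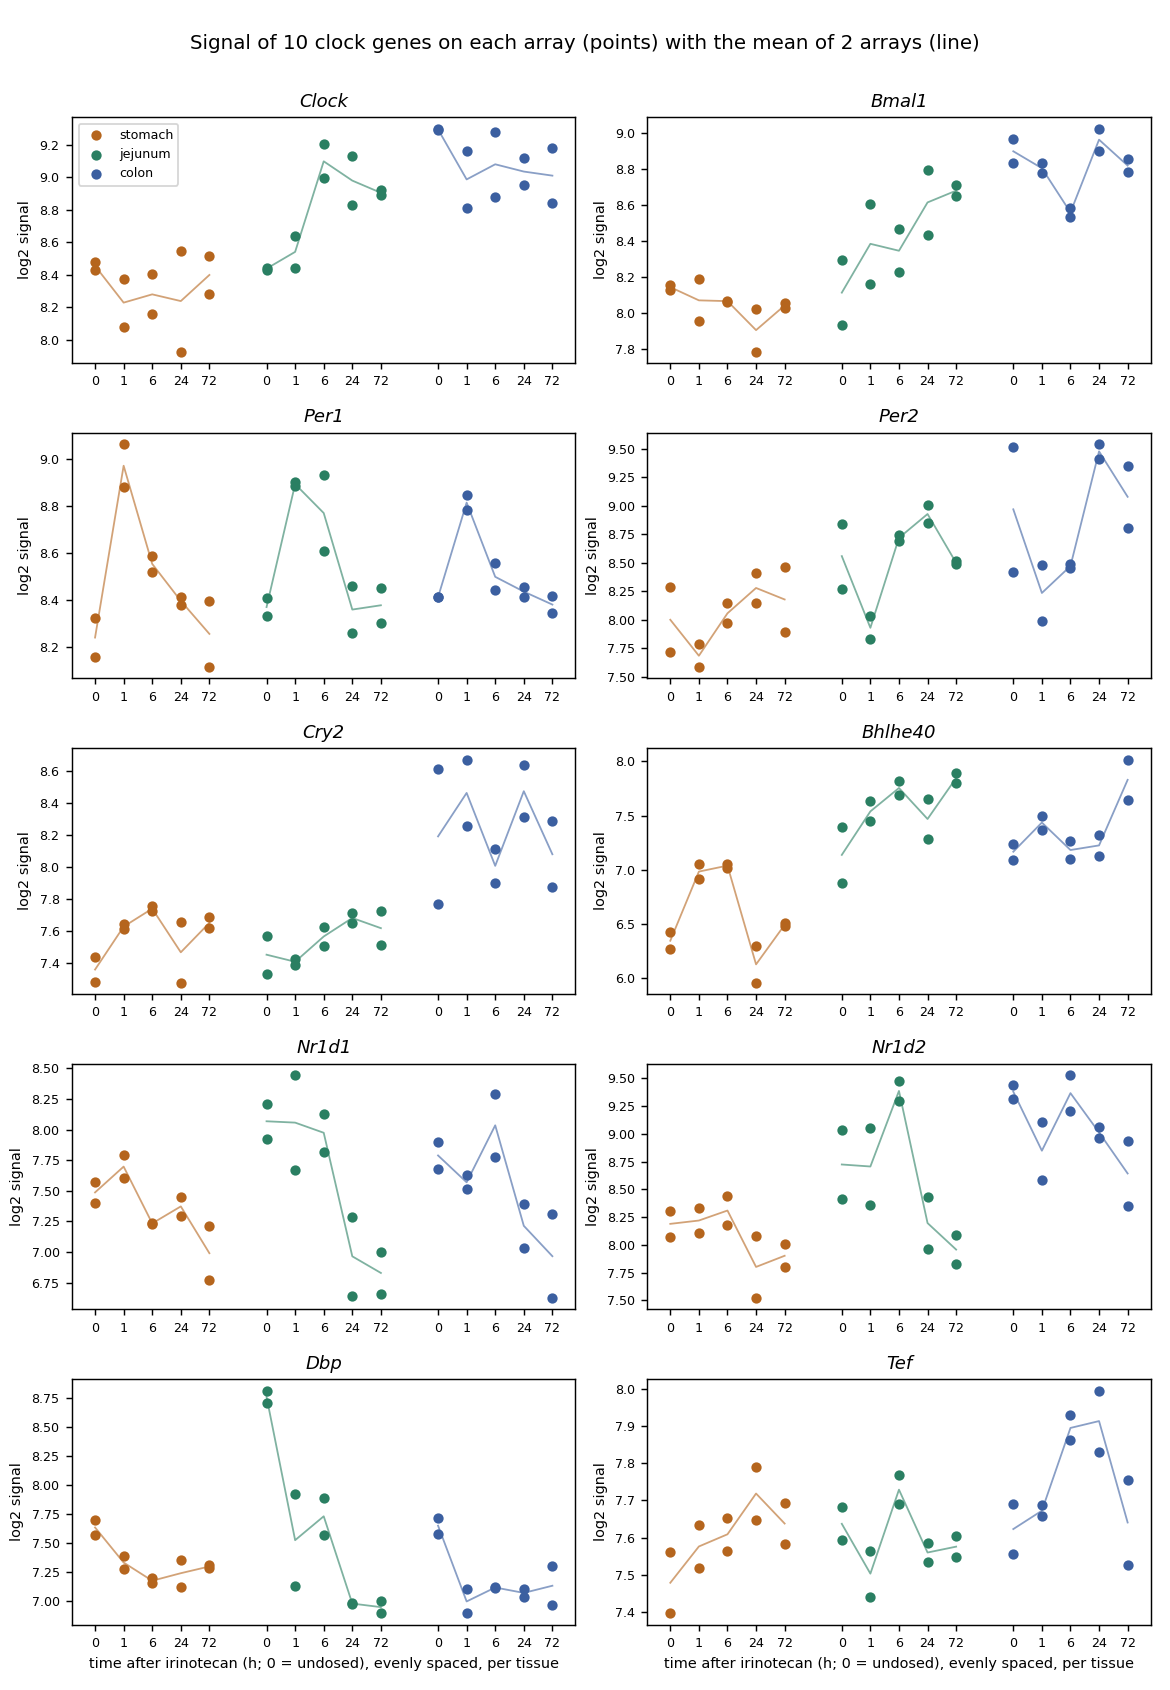
Log2 signal on each array (points) and mean of 2 arrays (line) against time after irinotecan in h, evenly spaced, with stomach, jejunum and colon side by side in each of 10 panels. Dbp falls away from 0 h in all 3 tissues and furthest in the jejunum (8.76 ± 0.08 at 0 h, SD of 2 arrays), Per1 peaks at 1 h in all 3, and Nr1d1 is lowest at 72 h in all 3.

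Among the repressors, Per1 encodes a partner of the CRY proteins, and its gene also answers directly to glucocorticoids and cAMP. The locus is on chromosome 10 from 54299002 to 54313804. In the stomach Per1 was 8.16 and 8.33 at 0 h, 8.88 and 9.06 at 1 h, 8.52 and 8.59 at 6 h, 8.38 and 8.42 at 24 h, and 8.40 and 8.12 at 72 h. The jejunum had 8.33 and 8.41 at 0 h, 8.88 and 8.90 at 1 h, 8.61 and 8.93 at 6 h, 8.26 and 8.46 at 24 h, and 8.45 and 8.30 at 72 h. The colon had 8.41 and 8.41 at 0 h, 8.78 and 8.85 at 1 h, 8.44 and 8.56 at 6 h, 8.42 and 8.46 at 24 h, and 8.35 and 8.42 at 72 h. In each tissue both 1 h pools and both 6 h pools thus lay above both 0 h pools, as for 1.62% of probe sets at 1 h and 3.05% at 6 h, and the levels at 24 and 72 h lay near those at 0 h.

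Within a tissue the Per1 difference at 1 h was 0.73 ± 0.12 in the stomach (limma adjusted p = 0.27), 0.52 ± 0.12 in the jejunum (adjusted p = 0.468) and 0.40 ± 0.10 in the colon (adjusted p = 0.286), none of which passed. Averaged over the 3 tissues in 1 fit of 30 arrays, Per1 rose by 0.55 ± 0.06 at 1 h (limma adjusted p = 0.000196, 1.46-fold) and by 0.27 at 6 h (adjusted p = 0.0142). That fit counts tissues of the same rats as independent; with the 3 tissues averaged into 1 value per time and replicate number, neither Per1 change passed (adjusted p = 0.109 at 1 h and 0.144 at 6 h). At 24 h the average was 0.06 and at 72 h it was -0.0027.

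Per2, the paralogue of Per1, ran the other way at 1 h on its brightest probe set. Jejunum Per2 was 8.84 and 8.27 at 0 h, 7.83 and 8.03 at 1 h, 8.69 and 8.75 at 6 h, 9.01 and 8.85 at 24 h, and 8.49 and 8.51 at 72 h. Colon Per2 was 9.52 and 8.42 at 0 h, 7.99 and 8.48 at 1 h, 8.46 and 8.49 at 6 h, 9.41 and 9.54 at 24 h, and 8.81 and 9.35 at 72 h. The undosed colon pools lay far apart, and both 1 h jejunum pools lay under both 0 h pools while 1 colon pool did not. For that jejunum pattern no share of probe sets is given. Stomach Per2 at 1 h was 7.78 and 7.58, against 8.29 and 7.71 at 0 h. The 1 h differences were -0.32 ± 0.23 in the stomach, -0.63 ± 0.16 in the jejunum and -0.73 ± 0.30 in the colon (limma adjusted p = 0.965, 0.647 and 0.317), and the average was -0.56 ± 0.16 (adjusted p = 0.17). The other probe set of Per2 did not track the brightest one (r = 0.16 over 30 arrays, centred by tissue). At 1 h it differed by -0.23 ± 0.12 in the jejunum, 0.11 ± 0.09 in the stomach and 0.03 ± 0.10 in the colon. None of these passed, and the average on that probe set was -0.03 ± 0.06 (limma adjusted p = 0.879).

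Cry2, whose protein holds PER in the inhibiting complex, passed in no comparison with 0 h. Its levels ran from 7.28 to 7.76 on stomach arrays, 7.33 to 7.72 on jejunum arrays and 7.77 to 8.67 on colon arrays. On the brightest probe set the largest difference was 0.38 ± 0.13 in the stomach at 6 h (limma adjusted p = 0.42). There 7.76 and 7.72 at 6 h stood against 7.44 and 7.28 at 0 h. The colon 0 h pools were 8.61 and 7.77, so a colon change smaller than their gap could not be resolved. Its other probe set had r = -0.06 with the brightest one.

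Bhlhe40 encodes DEC1, a repressor that competes with CLOCK and BMAL1 for E-boxes, and lies on chromosome 4 from 143174450 to 143180150. In the stomach Bhlhe40 was 6.43 and 6.27 at 0 h, 7.06 and 6.91 at 1 h, 7.02 and 7.06 at 6 h, 5.96 and 6.30 at 24 h, and 6.51 and 6.48 at 72 h. The jejunum had 7.39 and 6.88 at 0 h, 7.45 and 7.63 at 1 h, 7.69 and 7.82 at 6 h, 7.29 and 7.65 at 24 h, and 7.89 and 7.80 at 72 h. The colon had 7.09 and 7.24 at 0 h, 7.50 and 7.37 at 1 h, 7.10 and 7.27 at 6 h, 7.13 and 7.32 at 24 h, and 8.02 and 7.64 at 72 h. All 1 h and all 72 h pools lay above the 0 h pools of their tissue, as for 1.62% and 3.61% of probe sets, with the stomach high early and the colon high late.

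Jejunum Bhlhe40 rose by 0.71 ± 0.17 at 72 h (limma adjusted p = 0.0204), a call kept in 1 of 4 repeats without an array (0.0175 to 0.126). The colon difference at 72 h was 0.66 ± 0.14 against 0 h (limma adjusted p = 0.0522), and Bhlhe40 rose by 0.60 ± 0.14 against 24 h (adjusted p = 0.0342, or 0.0163 to 0.189 without 1 array). Without colon 72 h replicate 2 the change against 0 h was 0.85 (limma adjusted p = 0.0228). In the stomach the differences were 0.64 ± 0.12 at 1 h (limma adjusted p = 0.437) and 0.69 at 6 h (adjusted p = 0.136), and the 6 h difference in the jejunum was 0.62 (adjusted p = 0.089, or 0.0157 without the array with the GAPDH gap). Over the 3 tissues Bhlhe40 rose by 0.44 ± 0.09 at 1 h (limma adjusted p = 0.0399), 0.44 at 6 h (adjusted p = 0.00558) and 0.51 at 72 h (adjusted p = 0.00168), and was 0.06 higher at 24 h. With 1 value per time and replicate number only the 72 h change of Bhlhe40 passed (adjusted p = 0.0393).

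Of the 2 REV-ERB genes, Nr1d1 encodes REV-ERB alpha and lies on chromosome 10 from 84224599 to 84231812. Jejunum Nr1d1 was 7.92 and 8.21 at 0 h, 7.67 and 8.45 at 1 h, 7.82 and 8.13 at 6 h, 7.29 and 6.64 at 24 h, and 6.66 and 7.00 at 72 h. Colon Nr1d1 was 7.68 and 7.90 at 0 h, 7.51 and 7.63 at 1 h, 7.78 and 8.29 at 6 h, 7.39 and 7.04 at 24 h, and 6.63 and 7.31 at 72 h. Stomach Nr1d1 was 7.40 and 7.58 at 0 h, 7.60 and 7.79 at 1 h, 7.23 and 7.24 at 6 h, 7.45 and 7.29 at 24 h, and 6.77 and 7.21 at 72 h. In all 3 tissues both 72 h pools lay below both 0 h pools, as for 5.86% of probe sets. In the jejunum and colon so did both 24 h pools, for which no share of probe sets is given.

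Jejunum Nr1d1 fell by 1.24 ± 0.28 log2 units at 72 h (limma adjusted p = 0.0152), a call kept in 1 of 4 repeats without an array (0.047 to 0.111), and differed by -1.10 at 24 h (adjusted p = 0.12). Without the jejunum 24 h array with the GAPDH gap the 24 h change was -1.42 (limma adjusted p = 0.0179). The colon difference was -0.57 ± 0.23 at 24 h (limma adjusted p = 0.245) and -0.82 at 72 h (adjusted p = 0.106). Without the colon arrays carrying pancreatic or gastric markers these were -0.75 (limma adjusted p = 0.0392) and -1.16 (adjusted p = 0.00687). The stomach difference at 72 h was -0.50 ± 0.15 (limma adjusted p = 0.656), and a tissue difference in the 72 h response was not shown (adjusted p = 0.425). Averaged over tissues Nr1d1 fell by 0.60 ± 0.15 at 24 h (limma adjusted p = 0.0285) and by 0.85 at 72 h (adjusted p = 0.00141), and with 1 value per time and replicate number these p were 0.234 and 0.0507.

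Nr1d2, which encodes REV-ERB beta, had a like course late and a peak at 6 h in the jejunum. Jejunum Nr1d2 was 8.42 and 9.03 at 0 h, 8.36 and 9.05 at 1 h, 9.48 and 9.30 at 6 h, 8.43 and 7.96 at 24 h, and 7.83 and 8.09 at 72 h. Colon Nr1d2 was 9.32 and 9.44 at 0 h, 8.59 and 9.11 at 1 h, 9.20 and 9.53 at 6 h, 9.06 and 8.96 at 24 h, and 8.35 and 8.94 at 72 h. In the stomach the 72 h pools were 7.80 and 8.003, against 8.07 and 8.31 at 0 h. On this brightest probe set the 72 h pools lay below the 0 h pools in each tissue, as for Nr1d1 and for 5.86% of probe sets. Neither other probe set of Nr1d2 held that pattern. On 1 of them a 72 h pool exceeded a 0 h pool slightly in stomach (7.4421 against 7.4414) and colon (8.3929 against 8.3912). On the remaining one the jejunum had 6.03 and 6.21 at 72 h, above 6.009 and 6.013 at 0 h.

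In the jejunum at 6 h the brightest Nr1d2 probe set was 0.66 ± 0.26 higher (limma adjusted p = 0.209), and its other probe sets rose by 0.71 ± 0.14 (adjusted p = 0.0305) and 0.63 ± 0.08 (adjusted p = 0.00854). At 72 h the brightest probe set differed by -0.77 ± 0.26 in the jejunum (limma adjusted p = 0.0634) and -0.74 ± 0.21 in the colon (adjusted p = 0.114), while the other jejunum values were -0.33 ± 0.14 (adjusted p = 0.11) and 0.11 ± 0.08 (adjusted p = 0.357). The last of these probe sets is dim, with a mean signal of 6.15 that 19.8% of probe sets lie below. Without colon 72 h replicate 2 the colon change was -1.03 (limma adjusted p = 0.0368), and without the jejunum array with the GAPDH gap the jejunum 72 h change had an adjusted p of 0.019. The average over tissues fell by 0.60 ± 0.15 at 72 h (limma adjusted p = 0.0123, or adjusted p = 0.109 with 1 value per time and replicate number).

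**Figure D3:**
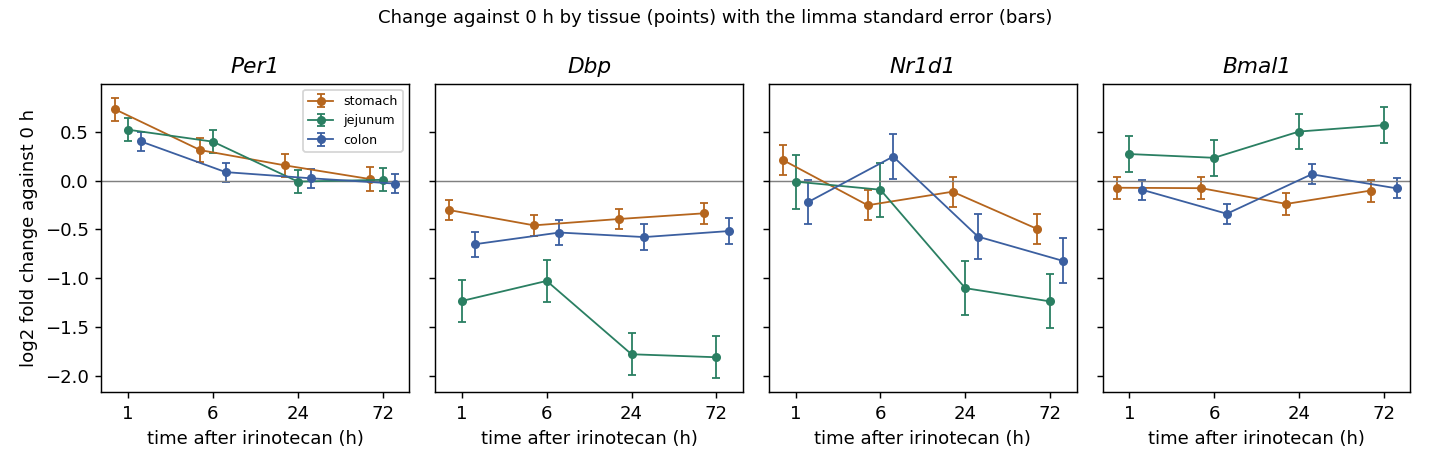
Log2 fold change against 0 h (vertical) at 1, 6, 24 and 72 h after irinotecan for Per1, Dbp, Nr1d1 and Bmal1 in stomach, jejunum and colon, with limma's standard error as bars. All 3 tissues lie above 0 for Per1 at 1 and 6 h, whereas the jejunum lies lowest for Dbp (-1.81 at 72 h) and highest for Bmal1 (0.57 at 72 h).

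Of the activators, Clock encodes the bHLH-PAS protein that pairs with BMAL1, and lies on chromosome 14 from 32262747 to 32346872. Jejunum Clock was 8.43 and 8.44 at 0 h, 8.44 and 8.64 at 1 h, 9.20 and 8.99 at 6 h, 9.13 and 8.83 at 24 h, and 8.89 and 8.92 at 72 h. All jejunum pools from 6 h on lay above both undosed pools, a pattern whose share over all probe sets is not given. Clock rose there by 0.66 ± 0.12 at 6 h (limma adjusted p = 0.0237) and by 0.47 at 72 h (adjusted p = 0.0252), and was 0.54 higher at 24 h (adjusted p = 0.0932). Neither call was kept when any array of the groups compared was left out. The change then ran from 0.56 to 0.76 at 6 h and from 0.45 to 0.48 at 72 h. In 1 fit of all 30 arrays both calls were also lost (limma adjusted p = 0.0654 and 0.0828), and the 72 h call of Clock was lost with quantile normalization (0.30, adjusted p = 0.099). In the colon the 0 h pools were 9.30 and 9.29 and all 8 dosed pools lay below them, between 8.81 and 9.28, as for 4.18% of probe sets, with changes of -0.21 to -0.31 that did not pass. The stomach values ran from 7.93 to 8.55.

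The 4 probe sets of Clock did not move alike. In the jejunum at 6 h the others gave 0.53 ± 0.10 (limma adjusted p = 0.0249), 0.13 ± 0.08 (adjusted p = 0.41) and 0.06 ± 0.11 (adjusted p = 0.799), and at 72 h 0.45 (adjusted p = 0.0142), -0.01 (adjusted p = 0.928) and 0.08 (adjusted p = 0.615). A pair of probe sets therefore passed at both times, and the other pair differed by at most 0.13. Which transcript each probe set reads was not examined.

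**Figure D4:**
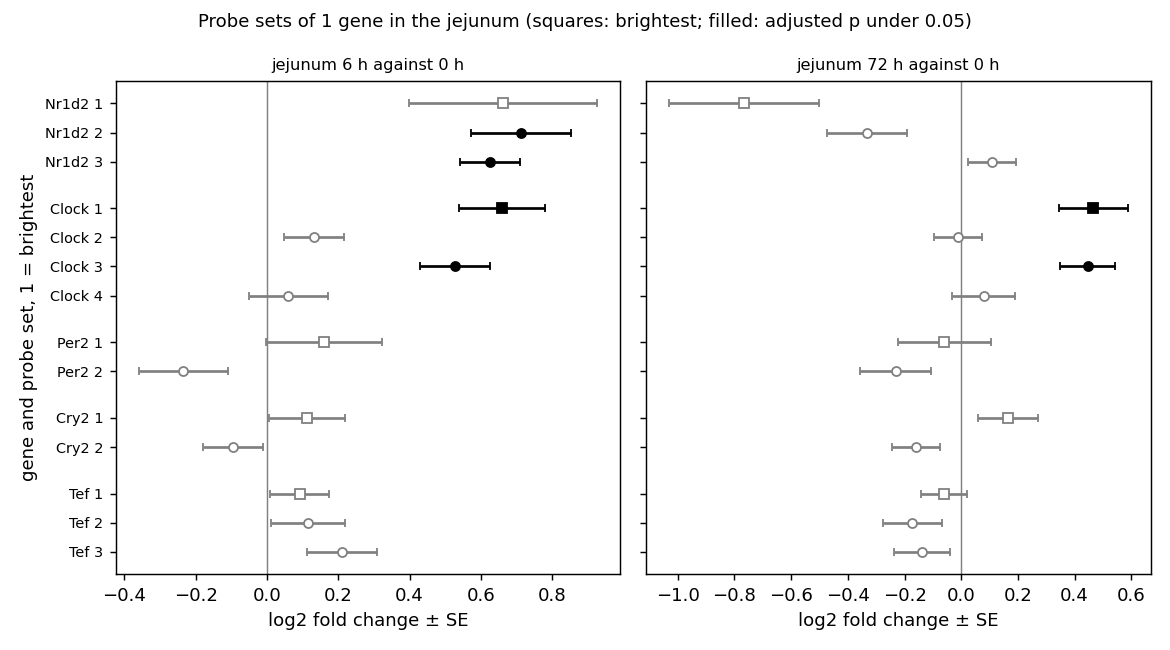
Log2 fold change ± limma standard error (horizontal) of each probe set of the 5 clock genes with more than 1 probe set, in the jejunum at 6 h (left) and 72 h (right) against 0 h. Squares are the brightest probe set and filled symbols passed at adjusted p under 0.05: 2 of 3 Nr1d2 probe sets and 2 of 4 Clock probe sets at 6 h, and 2 of 4 Clock probe sets at 72 h.

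Bmal1, the partner of CLOCK and the target of the REV-ERB repressors, lies on chromosome 1 from 176766222 to 176864741. Jejunum Bmal1 was 8.30 and 7.93 at 0 h, 8.61 and 8.16 at 1 h, 8.47 and 8.23 at 6 h, 8.43 and 8.80 at 24 h, and 8.71 and 8.65 at 72 h. Both 24 h and both 72 h pools lay above both 0 h pools, the reverse of Nr1d1 in that tissue. The share of all probe sets with either pattern in the jejunum alone is not given. The difference was 0.50 ± 0.18 at 24 h (limma adjusted p = 0.233) and 0.57 ± 0.18 at 72 h (adjusted p = 0.0521). The 72 h change passed without the jejunum 24 h array with the GAPDH gap (limma adjusted p = 0.0141) and in 1 fit of all 30 arrays (adjusted p = 0.0122). In the stomach Bmal1 stayed within 7.79 to 8.19, and in the colon it was 8.54 and 8.58 at 6 h, against 8.97 and 8.83 at 0 h (-0.34 ± 0.10, limma adjusted p = 0.174). A tissue difference in the 72 h response was not shown (limma adjusted p = 0.101). Over 30 arrays, each centred on its tissue mean, Nr1d1 correlated at -0.67 with Bmal1 and at 0.79 with Nr1d2, and Dbp at 0.64 with Nr1d1 and -0.57 with Bmal1. These arrays share rats across tissues and 0 h pools across times, so the values are a description.

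The promoter windows from RefSeq (250 bases before to 50 bases after the transcription start, GRCr8) were searched for clock motifs. All 10 genes were taken, whether or not their signal changed. All 10 genes matched, Nr1d1 and Clock with 2 starts each. The motifs searched on both strands were the E-box CACGTG, the E′-box CACGTT, the D-box TTATGTAA or TTACGTAA, the ROR element core TAGGTCA or TGGGTCA, and the cAMP element TGACGTCA. An E-box stood in 3 of the 10 genes (Bhlhe40, Nr1d1 and Tef) and in 6.42% of all 33469 promoters, an E′-box in 3 (Cry2, Nr1d1 and Per2) and 4.83%, a D-box in 1 (Per2) and 1.01%, a ROR core in 1 (Bmal1) and 6.60%, and a cAMP element in 0 and 1.83%. Dbp, Per1, Nr1d2 and both Clock starts held none of these letters, which says only that they are not in this window. Printed are the windows of Bmal1 and Nr1d1, whose jejunum changes at 72 h had opposite signs, though that of Bmal1 did not pass. Also printed are those of Bhlhe40, which rose there, and of Per2, which holds 2 of the motifs. Capitals mark the ROR core of Bmal1 (chr1:176766078-176766377, + strand), at -16 to -10 from the start. In Nr1d1 (chr10:84229405-84229704, - strand) they mark the E-box at -191 to -186, and in Bhlhe40 (chr4:143174200-143174499, + strand) the E-box at -220 to -215. In Per2 (chr9:99496944-99497243, - strand) they mark the D-box at -192 to -185 and the E′-box at -62 to -57.
Bmal1: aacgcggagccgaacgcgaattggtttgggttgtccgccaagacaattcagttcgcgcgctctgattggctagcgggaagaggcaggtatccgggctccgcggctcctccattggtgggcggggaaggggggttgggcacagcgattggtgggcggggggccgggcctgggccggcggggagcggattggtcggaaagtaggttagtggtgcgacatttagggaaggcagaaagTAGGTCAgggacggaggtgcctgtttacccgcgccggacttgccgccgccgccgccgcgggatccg
Nr1d1: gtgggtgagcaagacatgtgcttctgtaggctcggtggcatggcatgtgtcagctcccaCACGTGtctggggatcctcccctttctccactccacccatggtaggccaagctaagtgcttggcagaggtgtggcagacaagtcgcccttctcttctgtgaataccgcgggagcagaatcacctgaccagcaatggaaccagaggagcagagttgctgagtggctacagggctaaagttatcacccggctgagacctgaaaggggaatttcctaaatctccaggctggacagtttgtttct
Bhlhe40: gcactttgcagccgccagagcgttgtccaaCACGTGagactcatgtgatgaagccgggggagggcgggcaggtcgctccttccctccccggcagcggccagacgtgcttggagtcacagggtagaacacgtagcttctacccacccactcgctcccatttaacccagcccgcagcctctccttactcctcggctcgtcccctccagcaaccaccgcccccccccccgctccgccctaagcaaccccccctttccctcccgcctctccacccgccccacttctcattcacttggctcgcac
Per2: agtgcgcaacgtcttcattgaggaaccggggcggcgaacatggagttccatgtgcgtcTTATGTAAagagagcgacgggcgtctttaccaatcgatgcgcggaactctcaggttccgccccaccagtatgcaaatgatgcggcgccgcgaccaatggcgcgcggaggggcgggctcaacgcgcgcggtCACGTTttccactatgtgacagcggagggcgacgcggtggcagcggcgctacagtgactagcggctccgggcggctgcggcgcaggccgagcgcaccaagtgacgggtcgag

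**Figure D5:**
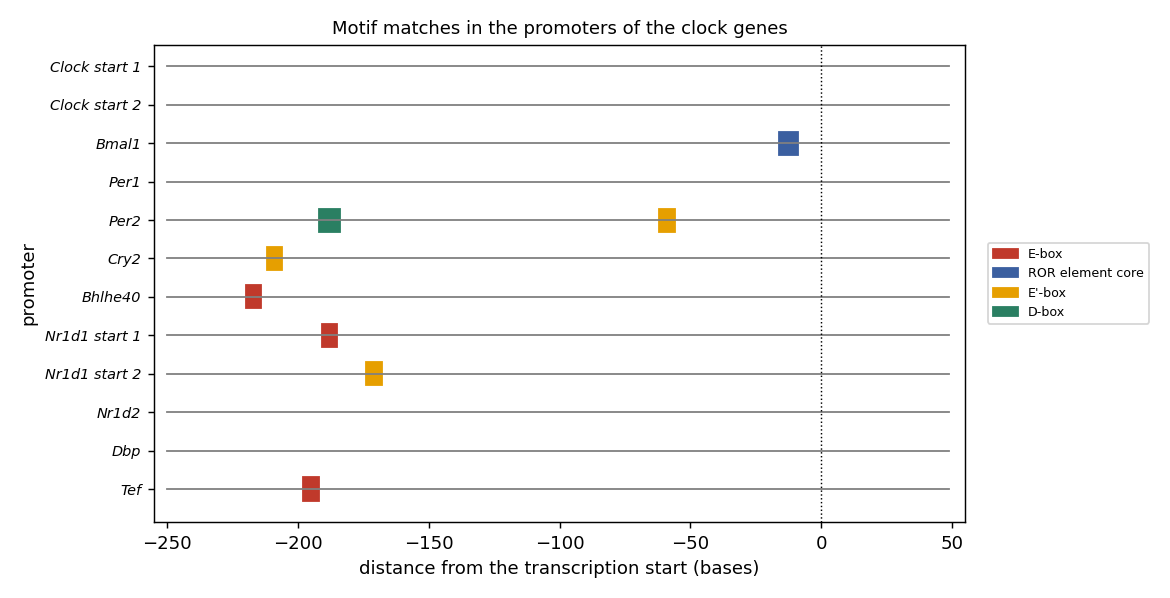
Positions of motif matches (coloured boxes) in 12 promoter windows of the 10 clock genes, with distance from the transcription start in bases on the horizontal axis and 1 line per start. The ROR core of Bmal1 lies next to the start, at -16 to -10, and the E-boxes of Nr1d1, Bhlhe40 and Tef lie between -220 and -186.

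Before dosing the 10 genes already differed between tissues. In the colon against the stomach at 0 h, 6 of 10 passed, all of them higher, with 33.1% of probe sets passing. They were Nr1d2 (1.19 ± 0.26, limma adjusted p = 0.00179), Per2 (0.97, adjusted p = 0.0133), Clock (0.84, adjusted p = 0.00189), Cry2 (0.83, adjusted p = 0.00456), Bhlhe40 (0.82, adjusted p = 0.000666) and Bmal1 (0.76, adjusted p = 0.000575). In the colon against the jejunum 4 were higher (Clock, Bmal1, Cry2 and Nr1d2, by 0.66 to 0.86) and Dbp lower, with 45.7% of probe sets passing. In the jejunum against the stomach Dbp and Bhlhe40 (0.79 ± 0.16, limma adjusted p = 0.000722) were higher, with 32.2% passing. The other Cry2 probe set differed in the colon by -0.0049 ± 0.12 from the stomach (limma adjusted p = 0.98) and -0.14 from the jejunum (adjusted p = 0.384). The other Per2 probe set was higher than in the stomach in colon (0.32 ± 0.10, limma adjusted p = 0.02) and jejunum (0.67, adjusted p = 3.01e-05). Its colon value differed from the jejunum by -0.35 (limma adjusted p = 0.00795). Without colon 0 h replicate 1 the Per2 and Cry2 differences from the stomach no longer passed (limma adjusted p = 0.3 and 0.145), and without stomach 0 h replicate 2 that of Per2 did not (0.158). The Nr1d2 difference between colon and jejunum was kept in 1 of 6 repeats without an array (limma adjusted p = 0.0232 to 0.397) and was lost with quantile normalization (0.196). That of Cry2 was lost without colon 0 h replicate 1 (limma adjusted p = 0.223) and without jejunum 0 h replicate 2 (0.0719).

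Averaged over the 3 tissues, 3 of the 10 genes passed at 1 h, 3 at 6 h, 2 at 24 h and 4 at 72 h, beside 0.428%, 6.86%, 5.11% and 18.5% of probe sets. Dbp fell at all 4 times, by 0.73 ± 0.10 at 1 h (limma adjusted p = 0.00103), 0.67 at 6 h (adjusted p = 0.000288), 0.92 at 24 h (adjusted p = 0.000136) and 0.89 at 72 h (adjusted p = 6.17e-05). With 1 value per time and replicate number the Dbp calls at 6, 24 and 72 h were kept (adjusted p = 0.0277, 0.0404 and 0.0101) and that at 1 h was lost (0.136). The remaining calls were those of Per1, Bhlhe40, Nr1d1 and Nr1d2 given above.

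Of the 16 further clock genes measured, each taken by its brightest probe set, none passed against 0 h in the stomach or the colon at any time. At unadjusted p under 0.05 there were 2, 2, 0 and 1 in the stomach, beside 5.72%, 8.83%, 8.34% and 7.56% of probe sets, and 4, 5, 5 and 5 in the colon, beside 14.9%, 14.1%, 16.7% and 17.2%. In the jejunum 3 of the 16 passed at 72 h, where 23.9% of probe sets passed. Per3, the remaining Per paralogue, was 6.87 and 6.75 at 72 h, against 7.51 and 7.60 at 0 h, and fell by 0.75 ± 0.14 (limma adjusted p = 0.00728). The other Per3 probe set differed by 0.15 there (limma adjusted p = 0.467). Usp2, a deubiquitinase gene that cycles in many tissues, was 7.68 and 7.64 at 72 h, against 8.59 and 8.53 at 0 h, and fell by 0.90 ± 0.12 (limma adjusted p = 0.00185), and by 0.92 on its other probe set (adjusted p = 0.0211). Rora, whose product activates Bmal1 through the elements where REV-ERB represses it, rose by 0.31 ± 0.09 on its brightest probe set (limma adjusted p = 0.0369), while its other probe set differed by -0.25 ± 0.12 (adjusted p = 0.135). Jejunum Per3 was highest at 6 h, at 7.82 and 7.84, and fell by 0.83 at 24 h against 6 h (limma adjusted p = 0.0336), as 1 of the 16, and differed by -0.18 on the other probe set (adjusted p = 0.755). The median change of the 16 at 72 h in the jejunum was -0.06, beside -0.07 over all probe sets.

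Averaged over tissues, 5 of the 16 passed at 72 h, beside 18.5% of probe sets: Npas2, the paralogue of Clock, fell by 0.64 ± 0.21 (limma adjusted p = 0.0429), Per3 by 0.47 (adjusted p = 0.00423) and Usp2 by 0.35 (adjusted p = 0.00499). Nfil3, a repressor that acts at D-boxes against Dbp, rose by 0.33 (limma adjusted p = 0.0268), and Wee1, a cell-cycle kinase gene under clock control, by 0.33 (adjusted p = 0.0451). The other probe sets of Per3, Usp2 and Wee1 differed by 0.03, -0.14 and 0.14 (limma adjusted p = 0.792, 0.43 and 0.225). At 6 h, beside 6.86% of probe sets, Usp2, Nfil3 and Csnk1e, which encodes a kinase of PER, rose by 0.28, 0.34 and 0.23 (limma adjusted p = 0.0311, 0.0399 and 0.0361). The other probe sets of Usp2 and Csnk1e did not pass at 6 h (limma adjusted p = 0.0623 for Usp2, and 0.271 and 0.598 for Csnk1e). At 1 h and 24 h 0 of 16 passed, beside 0.428% and 5.11% of probe sets.

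Glucocorticoid-induced genes were measured beside the clock genes, because Per1 is among such targets in many tissues. Of the 11 measured of 12 listed, 8 rose on average over tissues at 1 h, 8 at 6 h, 4 at 24 h and 5 at 72 h, beside 0.428%, 6.86%, 5.11% and 18.5% of probe sets, and none fell. The list's median change at 1 h was 0.97 in the stomach, 0.84 in the jejunum and 0.53 in the colon, beside 0.00, 0.00 and 0.02 over all probe sets. Within the jejunum Fkbp5, which encodes a chaperone of the glucocorticoid receptor, was 9.39 and 9.75 at 6 h and 8.999 and 9.029 at 72 h, against 7.37 and 7.49 at 0 h, and rose by 2.14 ± 0.15 at 6 h (limma adjusted p = 0.00202) and 1.58 at 72 h (adjusted p = 0.000696). Mt2A, a metallothionein gene, rose at 6 h by 1.67 ± 0.19 in the jejunum (limma adjusted p = 0.00499), 2.94 ± 0.21 in the stomach (adjusted p = 0.00659) and 2.41 ± 0.30 in the colon (adjusted p = 0.00379), and Ddit4, an inhibitor of mTORC1 signalling, rose by 1.59 ± 0.17 in the jejunum at 1 h (adjusted p = 0.0446). Pdk4, a kinase gene that restrains pyruvate oxidation, rose in the stomach by 2.29 ± 0.13 at 6 h (limma adjusted p = 0.00259) and 1.97 at 24 h (adjusted p = 0.00423). The other Pdk4 probe set did not pass there, at 1.00 at 6 h (limma adjusted p = 0.181) and 0.52 at 24 h (adjusted p = 0.594). Cebpd, a bZIP transcription factor gene, rose in the jejunum by 1.48 ± 0.18 at 6 h (limma adjusted p = 0.00668) and 1.12 at 72 h (adjusted p = 0.00474), and in the colon by 1.42 at 6 h (adjusted p = 0.0275) and 1.66 at 72 h (adjusted p = 0.0191). Sgk1, a kinase gene that promotes sodium uptake, rose in the colon by 0.84 ± 0.15 at 6 h (limma adjusted p = 0.0289) and 1.00 at 24 h (adjusted p = 0.0131). Per1 lay at its 0 h level by 72 h (0.01 ± 0.12 in the jejunum). Their part in the Per1 values was not tested.

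Markers of other cells differed in the jejunum at 72 h as well. The summed signal of 7 smooth muscle genes was 19609.9 to 21092 at 72 h, against 10559 to 12808 at 0 h, and that of 6 macrophage genes 14447 to 15509, against 11993 to 12807. Such sums weigh the brightest genes of a list most. The median of the macrophage list in the jejunum was 7.73 to 7.86 log2 units at 72 h, against 7.13 to 7.20 at 0 h. The 4 enterocyte genes measured summed to 45532 to 51521 at 72 h, against 48292 to 48561 at 0 h. In the colon at 72 h the macrophage sum was 4194 to 4871, against 1596 to 2163 at 0 h. No marker of these lists lay at 0 on the RMA scale. The jejunum smooth muscle sum was 12413 to 15471 at 1 h and 12187 to 12330.4 at 6 h. At 24 h it was 21957.4 on replicate 1, the array with the GAPDH gap, and 11683.8 on replicate 2. The part of these cells in the clock gene values was not tested.

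The genes whose signal ran most like Dbp over the 30 tissue-centred arrays, among 14217 genes, were Macrod1 (r = 0.75), LOC102554372 (0.71), Slc2a5, the fructose transporter gene (0.70), Fam13a (0.68) and Uqcr11 (0.68). Those most like Bmal1 were Nalf1 (0.77), Pam (0.71), Ntn1 (0.65), Itgb5 (0.65) and Eps15 (0.65). No p is given, because the arrays share rats and 0 h pools.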

How the data were processed

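RNA of whole stomach, jejunum and colon was measured on 30 Affymetrix rat genome arrays. The authors deposited log2 signals that RMA produced (per the submitters' processing notes). The sources used here do not give the RMA version or say whether it ran on all arrays at the same time. Probe-level files were not used, and no scaling was added. Of 31099 probe sets, 57 controls were left out, and of the other 31042, 20826 carried 1 symbol, 436 several and 9780 none.

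The 5 times of a tissue were fitted together with limma 3.58.1 (R 4.3.3); averages over tissues, tissue differences and 0 h contrasts came from 1 fit of 30 arrays. Tests were two-sided with Benjamini-Hochberg adjustment, and were tested on simulated data. The number of arrays limits the precision. The members and lists were chosen with earlier results of these data known. Named were all 10 members, listed genes past the threshold in a tissue (at most 6 other clock genes and 4 glucocorticoid-induced genes a tissue), and the 5 genes most like Dbp and Bmal1; listed genes past the threshold on average over tissues were named after their values were seen. Equal replicate numbers were not taken as pairs. Alternatives were a filter on dim probe sets, quantile normalization, 1 fit of all arrays, limma's trend and robust options, 1 value per time and replicate number, a replicate block, other probe sets, and leaving out arrays.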

Additional observations from a re-analysis of the deposited data

Results flagged for a closer look

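The change of Dbp against 0 h was not the same in the 3 tissues, by limma's F test of the interaction of tissue and time over all 31042 probe sets. At 24 h the adjusted p was 0.0319, with changes against 0 h of -1.78 in the jejunum, -0.39 in the stomach and -0.58 in the colon. At 72 h the adjusted p was 0.00631, with changes of -1.81, -0.34 and -0.52 in the same order of tissues. Dbp was lower on all dosed arrays in each tissue, so the tissues differed in size and not in direction. The tissues of a time share rats, which this test does not take into account.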

How the results depend on the processing

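Counts are of the 10 clock genes past limma's adjusted p of 0.05, and the cause of each shift was not tested. The share of all probe sets passing under each of these settings is not given. A changed count is therefore no result about clock genes in particular. Where 1 array at a time was left out, it came from the groups compared. The jejunum 24 h array with the GAPDH gap thus stayed in for the 1, 6 and 72 h comparisons with 0 h. In 1 fit of all 30 arrays the count was 1 in the stomach at 1 h, at 6 h and for 24 h against 6 h, 1 in the jejunum at 1 h and 1 in the colon at 72 h. Without the arrays with a GAPDH gap it was 1, 4 and 2 in the jejunum at 1, 6 and 24 h, and without those with pancreatic or gastric markers 1 and 4 in the colon at 24 and 72 h. Trend and robust variances gave 1 in the colon at 72 h and 2 over its 5 times, and quantile normalization 4 for jejunum against stomach at 0 h. With 1 value per time and replicate number the averages over tissues had 0, 1, 1 and 2 at 1, 6, 24 and 72 h.

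Equal numbers were not taken as pairs: the deviations of same-numbered arrays of a time correlated at -0.22 to 0.50 across tissues, with 5 of 15 pairs over 0.1. All 3 pairs at 24 h were among these 5, at 0.32 to 0.50. Whether same-numbered pools held the same rats is not known. With the replicate block the count was 1 in the colon at 24 h and 1 over its 5 times, and the average change of Bhlhe40 at 1 h had an adjusted p of 0.0763.

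Leaving out 1 array at a time gave 0 to 1 in the stomach for 24 h against 6 h and over 5 times. In the jejunum it gave 0 to 1 at 1 h, 0 at 6 h, 0 to 2 at 24 h, 1 to 2 at 72 h, 0 to 2 for 24 h against 6 h, 0 to 1 for 72 h against 24 h and 1 to 8 over 5 times. In the colon it gave 0 to 4 at 72 h, 0 to 1 for 72 h against 24 h and 0 to 3 over 5 times. The averages had 1 to 3 at 6 h and 1 to 2 at 24 h, the colon against the jejunum at 0 h 3 to 5, and the tissue difference at 24 h 0 to 1. Dropping dim probe sets changed no call of a member or count by over 1.5 times. Among changes that passed, Clock in the jejunum at 72 h turned sign on another probe set, at -0.012. Changes that did not pass turned sign on other probe sets too, such as Nr1d2 in the jejunum at 72 h (-0.77, and 0.11 on another), Per2 there at 24 h (0.37, and -0.15) and Cry2 there at 72 h (0.17, and -0.16).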
